A study of Sus scrofa with 20 samples.

Results

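Uterine gene expression in sows inseminated with the whole ejaculate (FR3) was compared with that in sows inseminated with the sperm-rich fraction alone (FR1). The libraries were chosen by their group names, 5 of FR3 and 5 of FR1, and they are 10 of the 20 in the series, with 1 library per sow. All genes with a name entered the comparison, and 16662 of 30345 passed the filter on low counts. The sows were wild-type Large-White X Landrace crosses of Danbred genetics, of parity 3.53 ± 1.12, allotted at random to their groups. They were inseminated behind the cervix from the onset of estrus and then daily, 2.53 ± 0.74 times on average, with semen of 3 Pietrain boars aged 32 ± 1 months. The FR1 dose was made from the rich fraction. For FR2 the intermediate fraction was added to it, and for FR3 the poor fraction was added as well. The pre-sperm phase and the gel were removed in all 3, so the whole ejaculate here means 3 fractions without these. The 5 FR2 sows and the 5 control sows, which were not inseminated, are given beside the comparison and entered its fits only where named. Uterine tissue was taken 6 days after the onset of estrus. The labels say that the horns were examined for embryos, but not which sows held any, which boar served which sow, or which layers of the uterine wall went into a library.

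In the boar, sperm leave mainly in the rich fraction, and the later fractions carry fewer sperm in more fluid from the accessory glands. That fluid, the seminal plasma, is known to set off a short inflammatory response in the uterus and to act on immune cells and on the lining that will receive the embryos. In the early luteal phase the lining is turning from growth, which estrogen drives, to secretion under progesterone. Genes of the cell cycle, of secretion and of immunity are therefore of interest when semen with less or more seminal plasma is compared.

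Library totals were 36.4 to 53.9 M counts in FR1 and 33.0 to 62.9 M in FR3. Markers of the uterus were present throughout. The summed level of 11 smooth muscle genes was 4086 to 29711 CPM (counts scaled to a common library size) in FR1 and 5226 to 27217 in FR3, and that of 15 epithelial genes 1820 to 5305 and 1708 to 6955. Transcripts of smooth muscle and of epithelium were thus in every library. Whether the muscle was that of the wall or of vessels was not tested. FR1_1, FR1_4 and FR3_4 stood apart from the other 7 libraries: on the first principal component, which held 52.6% of the variance, they lay at -69.5, -80.8 and -66.3, and the others between -8.80 and 70.9. They had the lowest means over the epithelial list, 5.87, 5.90 and 5.74 on the log2(CPM + 0.5) scale against 6.69 to 7.58 in the others, and the highest over the smooth muscle list, 10.11, 10.08 and 10.12 against 7.53 to 9.60. FR3_3 lay alone on the second component, at -60.5, with the fewest genes above 0, 17006, and the largest share of counts in its 10 most abundant genes, 10.6%. The results below are given with and without these libraries where they matter. In whole tissue, fewer cells of a type and less RNA per cell cannot be told apart.

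No gene passed edgeR's quasi-likelihood test at an adjusted p below 0.05: 0 of 16662 were called, 0%, and the lowest adjusted p was 0.343. At an unadjusted p below 0.05 there were 1874 genes, 11.2% of those tested, 857 with FR3 higher (5.14%) and 1017 with FR3 lower (6.1%). limma-voom also called 0, with 1969 genes at an unadjusted p below 0.05, whereas DESeq2 called 260 (1.56%), 91 with FR3 higher (0.546%) and 169 with FR3 lower (1.01%). The DESeq2 count depended on single libraries. It was 39 without FR1_4, 115 without FR1_1, 117 without FR3_5, 120 without FR3_2, 135 without FR3_1, 140 without FR1_2, 717 without FR1_3 and 927 without FR3_4, and it was 113 without FR1_1, FR1_4 and FR3_4 together. The count at an unadjusted edgeR p below 0.05 was 1247 without FR1_1, 1073 without FR1_4, 3231 without FR3_4 and 1229 without FR1_1, FR1_4 and FR3_4. In 414 genes (2.48%) the 5 FR3 levels did not overlap with the 5 FR1 levels, with FR3 above in 173 (1.04%) and below in 241 (1.45%). With relative log expression factors in place of TMM factors this split was 226 above and 207 below, 433 in all. Fewer libraries make an overlap less likely, and the count was 650 without FR1_2, 939 without FR1_3, 662 without FR1_5, 738 without FR3_3 and 1114 without FR3_4. Since the main test called nothing, the folds below are described and not called. The median log2 fold change over all genes tested was 0.01, with 8531 genes positive and 8131 negative.

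**Figure D1:**
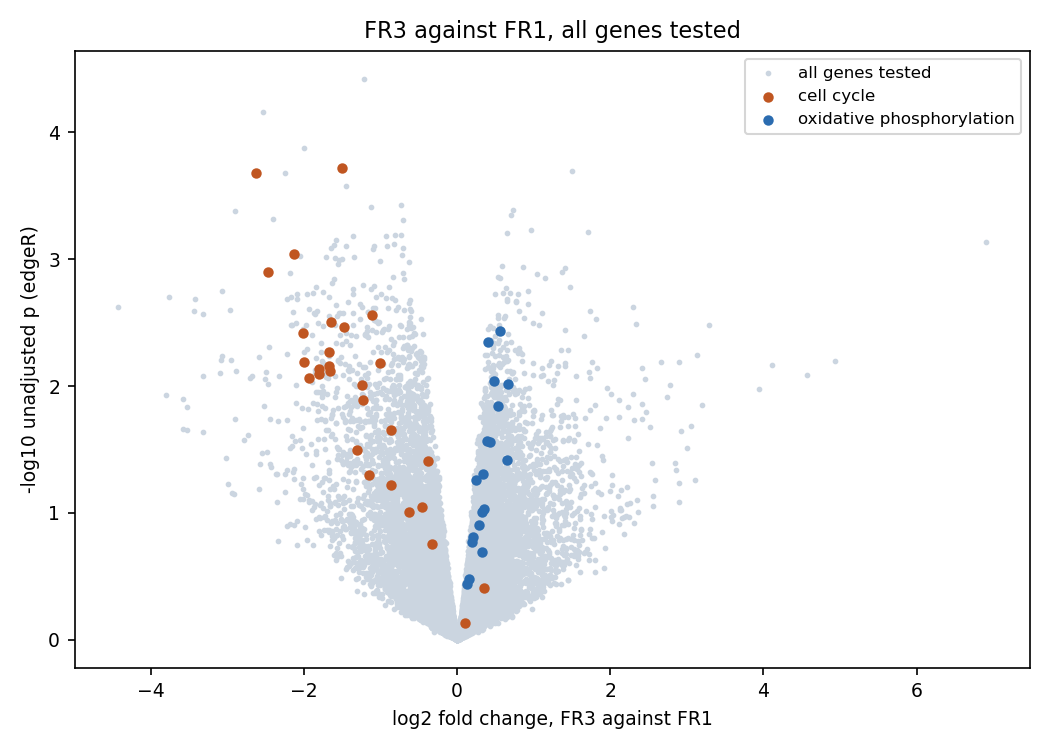
Each point is 1 of the 16662 genes tested, with the log2 fold change of FR3 against FR1 on the x axis and -log10 of edgeR's unadjusted p on the y axis. Cell cycle genes (orange) lie on the left, 26 of 28 below 0, and oxidative phosphorylation genes (blue) lie on the right, 18 of 18 above 0, between 0.13 and 0.67.

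Among the gene lists with at least 5 members tested, that of the cell cycle lay furthest from the median of all genes, with lower levels after the whole ejaculate. Of 28 listed genes, all tested, 26 had a negative log2 fold change and 2 a positive one, and the median was -1.39, against 0.01 over all genes. None was called by edgeR, 21 had an unadjusted p below 0.05 with FR3 lower (6.1% of all genes did), and DESeq2 called 11 lower (1.01% of all genes). In 6 of the 28 the FR3 levels lay wholly below the FR1 levels, where 1.45% of all genes did: E2F1, CENPF, PLK1, MKI67, AURKB and CCNB2. Averaged over the list on the log2(CPM + 0.5) scale, the level was 3.43, 4.54, 3.28, 4.79 and 3.82 in FR1_1 to FR1_5 and 2.30, 2.97, 3.45, 2.91 and 2.24 in FR3_1 to FR3_5. The groups touched only where FR3_3 lay above FR1_3 and FR1_1.

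E2F1, a transcription factor that switches on genes for DNA synthesis, was at 5.09, 9.64, 5.56, 9.44 and 7.64 CPM in the FR1 libraries and at 2.92, 2.22, 3.72, 2.25 and 2.06 CPM in the FR3 libraries. The highest FR3 library was thus below the lowest FR1 library, and the log2 fold change was -1.50 ± 0.28 (SE, n = 5 and 5, edgeR adjusted p = 0.343, DESeq2 adjusted p = 0.000203). CENPF, a kinetochore protein made in dividing cells, was at 9.51, 36.9, 9.49, 34.6 and 12.4 CPM in FR1 and at 2.94, 5.66, 3.46, 2.75 and 1.78 CPM in FR3. FR1_2 and FR1_4 were far above the other FR1 libraries, and all 5 FR3 libraries were below them all, at a log2 fold change of -2.63 ± 0.49 (edgeR adjusted p = 0.343). MKI67, which encodes the proliferation marker Ki-67, was at 25.4, 64.8, 25.3, 104 and 41.1 CPM in FR1 and at 4.48, 14.6, 18.8, 6.11 and 2.99 CPM in FR3. FR3_2 and FR3_3 came nearest to FR1, and the log2 fold change was -2.47 ± 0.58 (edgeR adjusted p = 0.343).

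Regulators of mitosis showed the same order. PLK1, which drives entry into and passage through mitosis, was at 10.3, 15.9, 7.36, 30.7 and 9.53 CPM in FR1 and at 1.63, 4.73, 5.52, 3.22 and 1.75 CPM in FR3, a log2 fold change of -2.13 ± 0.48. AURKB, the kinase that corrects attachments of chromosomes to the spindle, was at 10.9, 15, 7.4, 25.1 and 10.2 CPM in FR1 and at 2.65, 4.1, 7, 6.43 and 1.69 CPM in FR3, a log2 fold change of -1.64 ± 0.44. Here FR3_3 and FR1_3 were nearly level, so the gap between the groups was small. CCNB2, a mitotic cyclin, was at 4.8, 9.69, 2.97, 15 and 3.99 CPM in FR1 and at 0.611, 2.65, 2.43, 2.44 and 0.877 CPM in FR3, a log2 fold change of -2.01 ± 0.55. The groups overlapped for MCM5, a part of the replicative helicase, and TPX2, a spindle assembly factor. MCM5 had a log2 fold change of -1.11 ± 0.29 and TPX2 -1.48 ± 0.40.

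**Figure D2:**
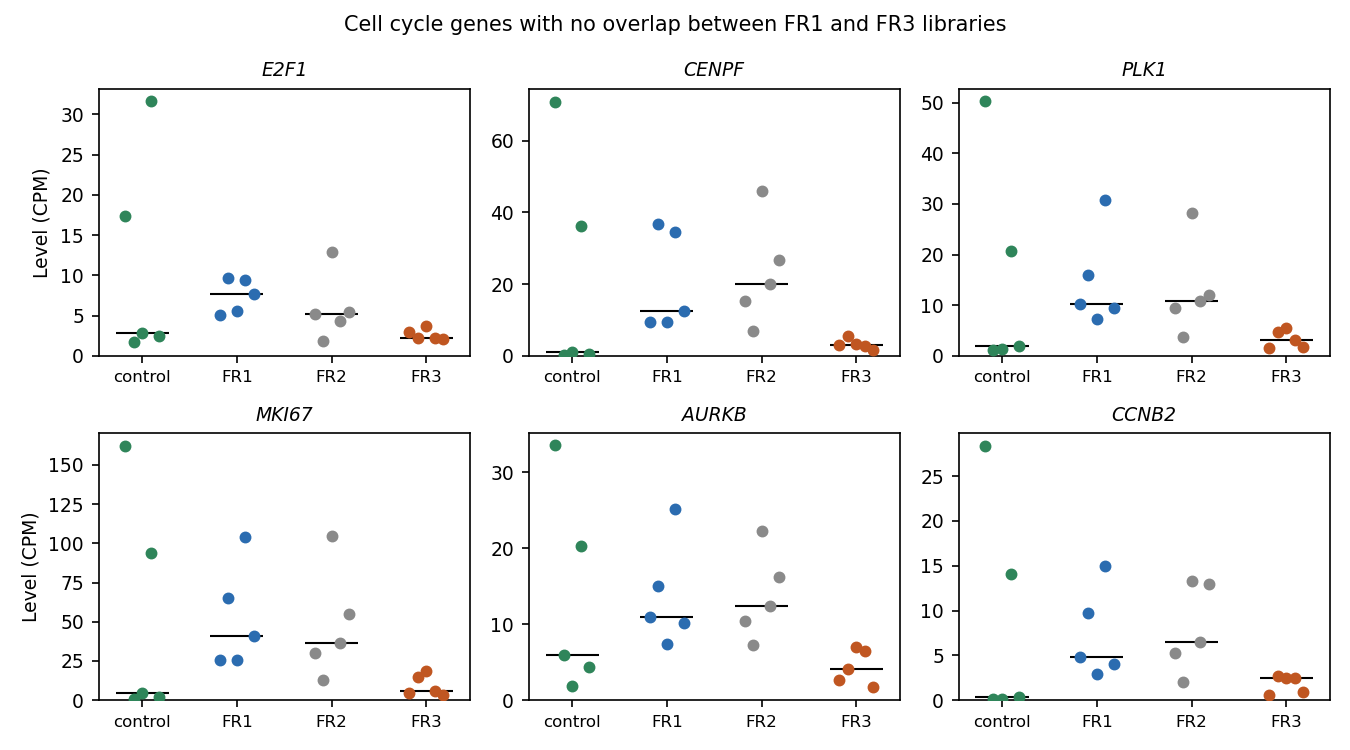
Levels in CPM of the 6 cell cycle genes whose FR1 and FR3 libraries did not overlap, 1 point per library in each of the 4 groups, with the group median as a line. All FR3 points lie below all FR1 points by selection, the FR2 points cover most of the FR1 range, and the control points run to above the highest FR1 library, with some below the lowest FR3 library in all but AURKB.

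Of the 8 genes with the smallest p among those lower in FR3, which were named by p alone, 5 have known roles in the cell cycle or in genome upkeep. PKMYT1, a kinase that holds back entry into mitosis, was at 1.75, 3.31, 1.87, 4.66 and 1.91 CPM in FR1 and at 0.498, 0.453, 0.569, 0.275 and 0.545 CPM in FR3, a log2 fold change of -2.53 ± 0.41. CDCA5, or sororin, which keeps sister chromatids together, was at 4.68, 12.7, 5.4, 15.7 and 7.48 CPM in FR1 and at 1.29, 2.31, 2.52, 2.51 and 0.998 CPM in FR3, a log2 fold change of -2.25 ± 0.42. FANCA, a member of the Fanconi anemia repair complex, was at 9.8, 14.4, 7.62, 25.3 and 9.36 CPM in FR1 and at 3.26, 3.89, 4.49, 2.41 and 2.6 CPM in FR3, a log2 fold change of -2.00 ± 0.35. In all 3 genes FR1_4 was the highest library and no FR3 library reached any FR1 library. E2F1 and CENPF are the other 2. Some cell cycle genes outside the list, picked after their values were seen, were also among the DESeq2 calls: FOXM1, which drives mitotic genes, at a DESeq2 log2 fold change of -1.84, the checkpoint kinase CHEK1 at -0.96, PLK4, which sets centriole number, at -1.33, and the helicase subunit MCM4 at -1.57.

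The remaining 3 of the 8 are not known mainly for the cell cycle. ATXN7L2, which had the smallest p of all genes named, was at 22.7, 14.5, 17.4, 21 and 14.9 CPM in FR1 and at 8.76, 6.38, 7, 8.94 and 7.9 CPM in FR3, a log2 fold change of -1.22 ± 0.18 (edgeR adjusted p = 0.343). PHF21B was at 50.6, 31.7, 32.9, 58.7 and 24.9 CPM in FR1 and at 9.22, 12.8, 18.1, 19.4 and 13.4 CPM in FR3, a log2 fold change of -1.45 ± 0.28. DNM1, a dynamin that pinches off vesicles, was at 31.3, 27.5, 25.4, 31.5 and 24 CPM in FR1 and at 14.1, 19.4, 15.5, 15.8 and 19.2 CPM in FR3, a log2 fold change of -0.74 ± 0.15. None of the 3 overlapped between the groups.

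Cell cycle levels did not sort with the 3 libraries that stood apart. Among the 3 libraries low in epithelial markers, FR1_4 had the highest cell cycle mean of the 10, 4.79, FR1_1 had 3.43 and FR3_4 had 2.91. Without these 3 libraries the median of the list was -1.30, with 18 genes at an unadjusted p below 0.05, and DESeq2 called 4. Over all genes 1229 had such a p in either direction, and DESeq2 called 52 lower. The DESeq2 count of the list was 3 without FR1_4, 4 without FR1_2, without FR3_1 or without FR3_5, 5 without FR3_2, 7 without FR1_5, 16 without FR3_4 and 17 without FR1_3 or without FR3_3. Over all genes DESeq2 called 23 lower without FR1_4, 479 without FR3_4, 369 without FR1_3 and 255 without FR3_3. With no library left out it called 169 lower. With the epithelial mean as a covariate the median of the list was -1.21, with 19 genes at an unadjusted edgeR p below 0.05. With all 20 libraries in the fit the median was -1.39, with 7 genes at an unadjusted p below 0.05. The counts over all genes in the covariate and 20-library fits are not given here. The control sows were the most uneven, at 5.83, 1.34, 1.76, 4.91 and 1.96 in CONTROL_1 to CONTROL_5, so that both FR1 and FR3 lay within their range.

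On the other side, the 8 genes with the smallest p and FR3 higher were of mixed function. CTGF, a secreted matrix-associated protein and a target of Hippo signalling, was at 129, 145, 212, 94.8 and 102 CPM in FR1 and at 526, 331, 276, 293 and 504 CPM in FR3. Every FR3 library was above every FR1 library, at a log2 fold change of 1.50 ± 0.28 (edgeR adjusted p = 0.343, DESeq2 adjusted p = 0.000203). CRYAB, a small heat shock protein, was at 86.6, 56.4, 75.9, 70.7 and 69.1 CPM in FR1 and at 159.5, 318, 144, 109 and 448 CPM in FR3, a log2 fold change of 1.72 ± 0.36. FR3_2 and FR3_5 were the highest, and FR3_4 came nearest to FR1.

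FGG, the gamma chain of fibrinogen, had the largest fold. It was at 0, 0.151, 0.456, 0 and 0.191 CPM in FR1 and at 46.2, 24.3, 10.7, 0 and 16.8 CPM in FR3, a log2 fold change of 6.91 ± 1.50, which rests on FR1 levels at or near 0. FR3_4 had no counts, so the groups overlapped, and FR2 ranged from 0 to 34.9 CPM and control from 0 to 25.7 CPM. The other 5 had folds below 2 with tight groups. SLC23A3, a member of the ascorbate transporter family, was at 4.99, 7.44, 6.95, 5.37 and 6.72 CPM in FR1 and at 10.4, 12.2, 12.6, 16.8 and 9.68 CPM in FR3, a log2 fold change of 0.97 ± 0.20. HDDC2 (0.73 ± 0.15), LRRC57 (0.70 ± 0.14), PDZD11 (0.65 ± 0.14) and GPD1L (0.59 ± 0.13) also did not overlap between the groups.

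Genes of the mitochondrial respiratory chain had slightly higher levels after the whole ejaculate. Of 30 listed nuclear genes of oxidative phosphorylation 18 had a match in the table, and all 18 had a positive log2 fold change, with a median of 0.34 and a range of 0.13 to 0.67. None was called by edgeR, 9 had an unadjusted p below 0.05 (5.14% of all genes with FR3 higher), DESeq2 called 2 (0.546% of all genes), and 4 did not overlap between the groups (1.04% of all genes). COX7A2, a subunit of cytochrome c oxidase, was at 69, 64, 91.9, 60.4 and 77.5 CPM in FR1 and at 93.7, 92.4, 125, 113 and 109 CPM in FR3, a log2 fold change of 0.55 ± 0.15 (DESeq2 adjusted p = 0.0343). NDUFV2, a subunit of complex I, was at 53.4, 53, 56.9, 49.3 and 57.7 CPM in FR1 and at 63.6, 64, 79.5, 74.7 and 75.1 CPM in FR3, a log2 fold change of 0.40 ± 0.11 (DESeq2 adjusted p = 0.0169). The gap between the groups was narrow in both, with FR1_3 the highest FR1 library for COX7A2. NDUFA4 (0.48 ± 0.15), of the same chain, and COX6C (0.67 ± 0.21), of cytochrome c oxidase, were the other 2 without overlap. Without FR1_1, FR1_4 and FR3_4 the median was 0.32 with 2 genes at an unadjusted p below 0.05, without FR3_3 and FR3_5 it was 0.23 with 3, and DESeq2 called 0 of the list in either case. Without FR1_4 there were 5 such genes, and the DESeq2 count was 0 without FR1_1, without FR1_2, without FR1_4 or without FR3_5 and 5 without FR1_3. Over all genes DESeq2 called 348 higher without FR1_3. Of 12 genes on mitochondrial DNA tested, 8 were positive, with a median of 0.16.

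Ribosomal protein genes had the same sign throughout but rested on few libraries. All 33 were positive with a median of 0.40, 1 had an unadjusted p below 0.05 (5.14% of all genes with FR3 higher), and none separated the groups. RPL27, a protein of the large subunit, was at 378, 379, 442, 385 and 392 CPM in FR1 and at 406, 512, 886, 707 and 455 CPM in FR3, a log2 fold change of 0.59 ± 0.22. FR3_3 and FR3_4 were the high libraries, and without FR3_3 the median of the list was 0.15. In a list of 18 genes, mostly chaperones of the endoplasmic reticulum, which fold secreted proteins, and partly its stress regulators, 17 were positive, with a median of 0.22. An unadjusted p below 0.05 was found in 2 (5.14% of all genes with FR3 higher). HSPA5, the main chaperone of that compartment, was at 287, 309.7, 298, 249.9 and 309 CPM in FR1 and at 385, 399.9, 330.4, 340.3 and 429 CPM in FR3, a log2 fold change of 0.37 ± 0.14 with no overlap. The next by p was CANX, a lectin chaperone, at 0.55 ± 0.23.

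**Figure D3:**
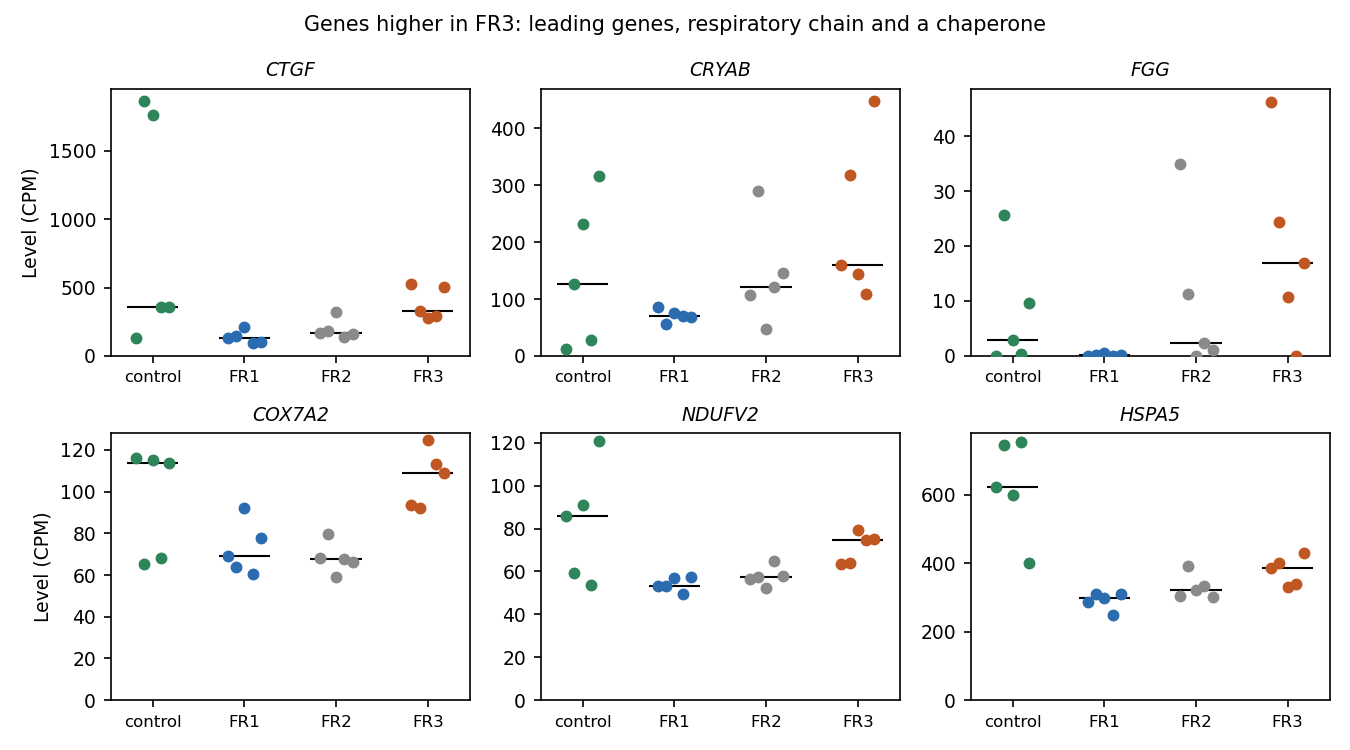
Levels in CPM of CTGF, CRYAB, FGG, COX7A2, NDUFV2 and HSPA5, 1 point per library in each of the 4 groups, with the group median as a line. All FR3 points lie above all FR1 points except for FGG, where FR3_4 is at 0, and the highest CTGF points, at 1864 CPM and below, are those of control sows.

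**Figure D4:**
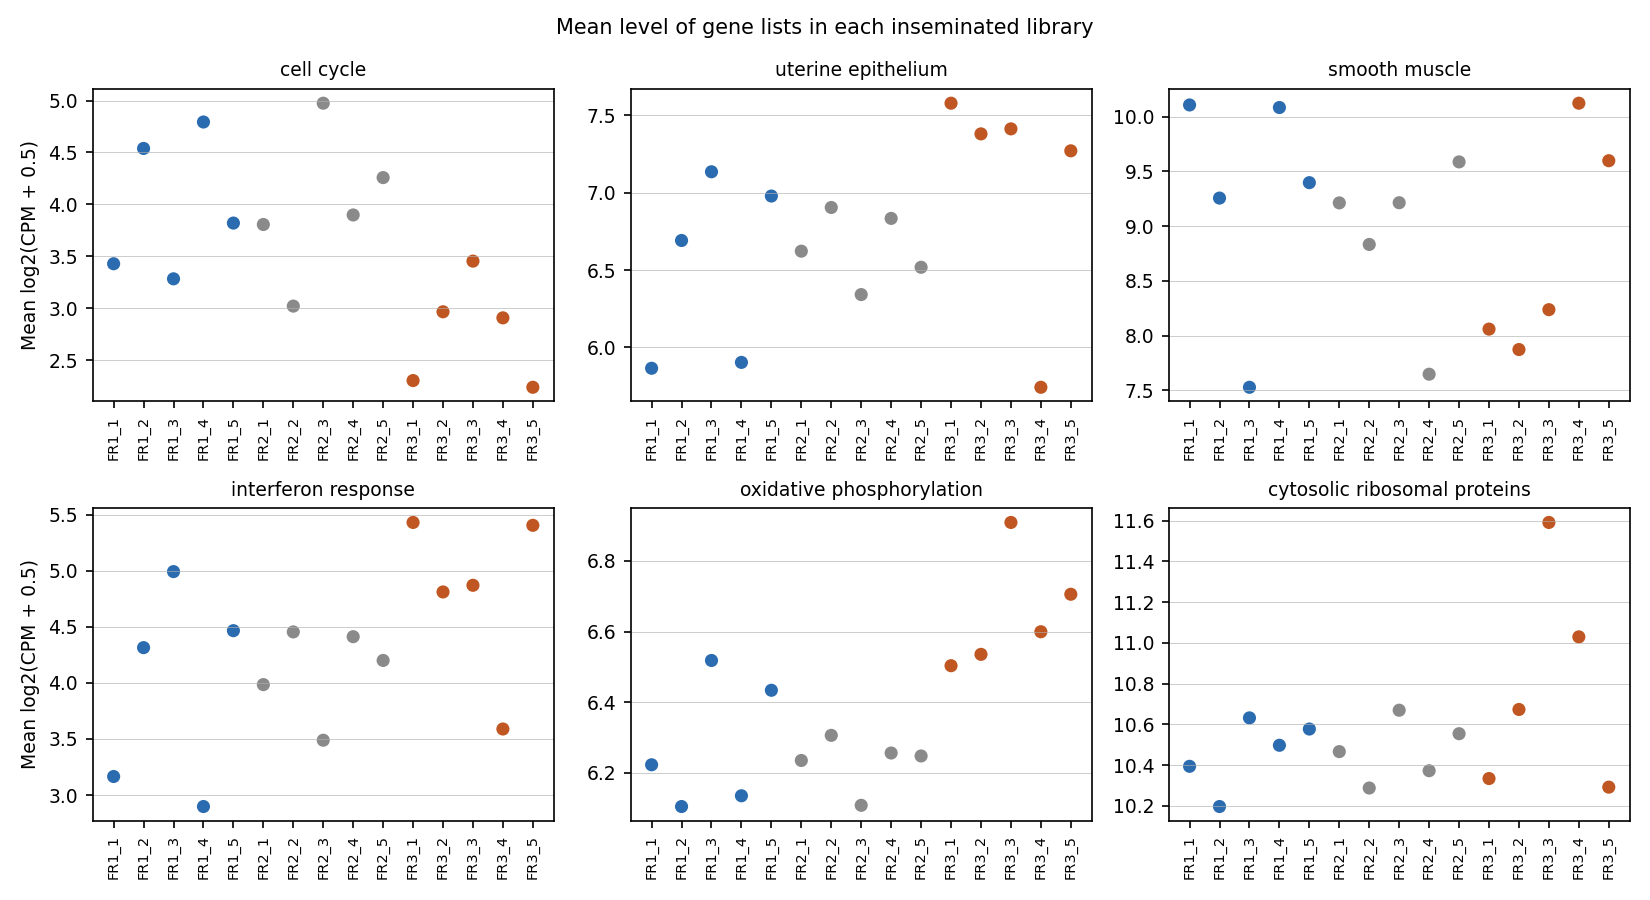
Mean level of 6 gene lists, on the log2(CPM + 0.5) scale, in each library of the 3 inseminated groups, 1 point per library. FR1_1, FR1_4 and FR3_4 are low in the epithelial list (5.74 to 5.90) and high in the smooth muscle list, FR1_4 is the highest FR1 library for the cell cycle (4.79), and FR3_3 is highest for the ribosomal and oxidative phosphorylation lists.

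Epithelial markers had higher levels in 4 of the 5 FR3 libraries. The mean of the epithelial list was 5.87, 6.69, 7.14, 5.90 and 6.98 in FR1 and 7.58, 7.38, 7.41, 5.74 and 7.27 in FR3, so that 4 FR3 libraries lay above all FR1 libraries and FR3_4 below them all. All 15 genes of the epithelial list were positive, with a median of 0.47, and none separated the groups. An unadjusted p below 0.05 was found in 2 (5.14% of all genes with FR3 higher). MUC1, a membrane mucin of the uterine lining, was at 3.19, 2.64, 2.39, 2.07 and 2.78 CPM in FR1 and at 6.5, 2.33, 5.95, 2.17 and 21 CPM in FR3, a log2 fold change of 1.53 ± 0.57, with FR3_5 far above the rest. Without FR3_4 there were 7 genes at an unadjusted p below 0.05, where 3231 of all genes, in either direction, had one. Gland genes went both ways: EHF, a transcription factor of epithelia, had 1.23 ± 0.83, and FOXA2, needed for uterine glands, -0.64 ± 0.41. Of 11 genes of ciliated cells, 10 were negative with a median of -0.56, and DNAI1, a dynein chain of cilia, had -0.96 ± 0.39.

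Nutrient transporters and genes of sterol and fatty acid synthesis were mostly positive. Of 23 nutrient transporters 15 were positive, with a median of 0.50, led by p by the zinc exporter SLC30A1 (1.00 ± 0.35) and the amino acid transporter SLC38A1 (0.59 ± 0.21), while SLC7A1, which carries cationic amino acids, had -0.63 ± 0.22. Of 19 genes of sterol and fatty acid synthesis 17 were positive, with a median of 0.46, and FDFT1, the first enzyme committed to sterols, had 0.77 ± 0.32. PTGES, which makes prostaglandin E2, was at 25.8, 37.8, 86.7, 30.5 and 27.6 CPM in FR1 and at 128, 90, 102, 25.3 and 119.6 CPM in FR3, a log2 fold change of 1.16 ± 0.45. FR3_4 alone was not above the FR1 libraries, and it was the lowest of the 10. The part of tissue composition in these folds was not tested.

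Interferon genes were higher on average in FR3, with wide spreads. Of 34 tested 28 were positive, with a median of 0.93, 5 had an unadjusted p below 0.05 (5.14% of all genes with FR3 higher), and neither edgeR nor DESeq2 called any. The list mean was 3.17, 4.31, 4.99, 2.90 and 4.47 in FR1 and 5.43, 4.81, 4.87, 3.59 and 5.41 in FR3. FR1_1, FR1_4 and FR3_4, the libraries low in epithelial markers, had the 3 lowest means. With the epithelial mean as a covariate the median was 0.21 and 26 of the 34 were positive. In that fit 5 were higher and 1 lower at an unadjusted edgeR p below 0.05. With the smooth muscle mean as a covariate 12 were higher, and with 1 surrogate variable 8. At an unadjusted limma p below 0.05, sample quality weights gave 26 higher and 2 lower. In that fit 4767 of all genes, in either direction, had such a p. For the covariates and the surrogate variable the counts over all genes are not given here. The part of tissue composition was not tested. ISG15, a ubiquitin-like protein of the antiviral response, was at 5.45, 9.87, 38.7, 3.98 and 16.4 CPM in FR1 and at 67, 18.1, 41.4, 16 and 102 CPM in FR3, a log2 fold change of 1.72 ± 0.68. HERC5, the ligase that attaches it, had 1.54 ± 0.55, OASL 2.46 ± 0.87 and ZBP1, a sensor of nucleic acids, 1.32 ± 0.56. FR1_3 was the highest FR1 library for ISG15. Without FR1_3, or without FR3_4, 22 of the 34 had an unadjusted p below 0.05 with FR3 higher, without FR1_1, FR1_4 and FR3_4 there were 12, and without FR3_3 and FR3_5 there were 0. There were 3 without FR1_2, 2 without FR1_1, without FR1_4 or without FR3_1, and 1 without FR3_5. The count over all genes, in either direction, changed as well. It was 1874 with all 10 libraries, 2527 without FR1_3 and 3231 without FR3_4. Without FR1_1, FR1_4 and FR3_4 it was 1229, and without FR3_3 and FR3_5 it was 1549. DESeq2 called 11 of the list higher without FR1_3 and 7 without FR3_4, where it called 348 and 448 genes higher in all. With 15 and 20 libraries in the fit 15 and 11 had an unadjusted edgeR p below 0.05. The counts over all genes in those fits are not given here.

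The list of cytokines and chemokines of inflammation, which also names receptors and adhesion molecules, had folds of both signs. Of its 21 genes tested 10 were positive and 11 negative, with a median of -0.07. An unadjusted p below 0.05 was found in 1 (6.1% of all genes with FR3 lower). The FR3 levels lay wholly below the FR1 levels in 2 (1.45% of all genes). CXCL2, a neutrophil attractant, was at 0.576, 0.639, 1.17, 1.58 and 1.09 CPM in FR1 and at 0.43, 0.362, 0.285, 0.55 and 0.424 CPM in FR3, a log2 fold change of -1.30 ± 0.44. CSF3, which raises neutrophil production, also lay lower without overlap (-1.36 ± 0.78), at levels under 1 CPM in all 10 libraries. Of 21 complement and acute phase genes 11 were positive and 10 negative, with a median of 0.11. An unadjusted p below 0.05 was found in 3, all with FR3 higher (5.14% of all genes with FR3 higher). They included 2 complement genes of macrophages: C1QB had 0.79 ± 0.32 and C1QA 0.74 ± 0.32, and FR3_3 was the highest library for both. Of 12 macrophage and dendritic cell markers 9 were positive, with a median of 0.51, and of 13 T and NK cell markers 5 were, with a median of -0.08. Of 30 genes of antigen presentation 25 were positive, with a median of 0.23.

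Red blood cell genes were high in 3 of the 5 FR3 libraries. HBB, beta globin, was at 59.6, 64, 68.5, 52.1 and 20.4 CPM in FR1 and at 76.4, 69.3, 1868, 342 and 223 CPM in FR3, a log2 fold change of 3.28 ± 0.88 (edgeR adjusted p = 0.343, DESeq2 adjusted p = 0.00509). FR3_3 was by far the highest, FR3_4 and FR3_5 came next, and FR3_1 and FR3_2 were just above FR1. The 3 red blood cell genes tested, with HBM and ALAS2, had a median of 3.13, and of 1.75 without FR3_3. Of 8 red blood cell genes listed only these 3 passed the filter on low counts, so the median describes them alone. DESeq2 called all 3 (0.546% of all genes were called higher), 1 without FR1_2 or without FR3_3, and 0 without FR1_1, without FR1_4, without FR1_1, FR1_4 and FR3_4 together, or without FR3_3 and FR3_5. Of 7 neutrophil markers 6 were positive, with a median of 0.99, and the largest fold, 4.57 ± 1.42 for the collagenase MMP8, rested on FR3_5, which had 14.6 CPM against 0.259 to 0.453 CPM in the other FR3 libraries. The part of residual blood in the other results was not tested.

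Genes of the muscle and connective tissue mostly had negative folds. Of 11 smooth muscle genes 10 were negative, with a median of -0.49, none at an unadjusted p below 0.05, and MYH11, the smooth muscle myosin, with a log2 fold change of -0.72 ± 0.54, was at 3151, 2076, 483, 3508 and 2221 CPM in FR1 and at 829, 858, 599.7, 2727 and 1944 CPM in FR3. The high values were those of FR1_1, FR1_4 and FR3_4. Of 27 collagens and proteoglycans 23 were negative, with a median of -0.29, and ELN, elastin, had -1.11 ± 0.45. PDGFRB, a receptor of pericytes and stroma, was at 109.7, 138, 136, 166 and 107 CPM in FR1 and at 52.6, 94.9, 42.5, 101 and 97.7 CPM in FR3, a log2 fold change of -0.75 ± 0.26 with no overlap. Among matrix proteases MMP11, a stromal protease, was at 97.6, 75.1, 83, 102 and 59.2 CPM in FR1 and at 53, 46.7, 46.4, 59.3 and 47.5 CPM in FR3, a log2 fold change of -0.72 ± 0.16 (edgeR adjusted p = 0.343, DESeq2 adjusted p = 0.0202). The protease inhibitor SERPINE2 had -1.45 ± 0.41 and was the other DESeq2 call of that list.

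In the Wnt, Notch, hedgehog, BMP and angiogenesis lists only 1 gene did not overlap between the groups, where 2.48% of all genes did not. In the Wnt list 15 of 30 were positive and 15 negative. At an unadjusted p below 0.05 there were 3 higher and 3 lower (5.14% and 6.1% of all genes). AXIN2, a feedback target of the pathway, was at 50.8, 68.8, 48, 78.9 and 50.6 CPM in FR1 and 28.4, 25.8, 40.8, 51.1 and 30.7 CPM in FR3, a log2 fold change of -0.75 ± 0.22. FR3_4 was the only FR3 library within the range of FR1. Of 14 hedgehog genes 12 were negative, with a median of -0.34, led by GLI3 (-0.54 ± 0.26). ID2, a target of BMP signals, was at 30.5, 43.6, 54.3, 25.3 and 35.4 CPM in FR1 and at 83.9, 75.2, 73.6, 40.1 and 102 CPM in FR3, a log2 fold change of 0.99 ± 0.26 (DESeq2 adjusted p = 0.0341). Among angiogenesis genes EPAS1, a transcription factor that responds to low oxygen, had 1.76 ± 0.53 (DESeq2 adjusted p = 0.0356), with FR3_4 the only FR3 library within the range of FR1. LFNG, which modifies Notch receptors, lay lower without overlap (-0.41 ± 0.13).

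Hormone receptors and patterning genes were mixed. PGR, the progesterone receptor, was at 34, 41.2, 17.5, 31 and 27 CPM in FR1 and at 15.2, 18.5, 22.7, 24.9 and 22.3 CPM in FR3, a log2 fold change of -0.54 ± 0.22, and FR1_3 lay within the range of FR3. PGRMC1, a membrane-associated progesterone-binding protein, was at 513, 615, 837, 534 and 769 CPM in FR1 and at 1195, 991, 1053, 699 and 1108 CPM in FR3, a log2 fold change of 0.63 ± 0.21, with FR3_4 alone within the range of FR1. Of 23 HOX and uterine homeobox genes 18 were negative, with a median of -0.28, 4 at an unadjusted p below 0.05 (6.1% of all genes with FR3 lower). HOXD3 was at 9.39, 7.44, 5.95, 5.32 and 6.03 CPM in FR1 and at 1.95, 3.69, 1.09, 4.27 and 3.81 CPM in FR3, a log2 fold change of -1.20 ± 0.37 with no overlap. Of 29 immediate early and heat shock genes 18 were positive and 11 negative, with a median of 0.14. At an unadjusted p below 0.05 there were 4 negative members (6.1% of all genes with FR3 lower). Those with the smallest p included the immediate early genes EGR2 (-0.74 ± 0.23, no overlap), FOSB (-1.73 ± 0.60) and MYC (-0.89 ± 0.32).

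Among genes often studied in responses to seminal plasma, none of those tested separated FR3 from FR1, where 2.48% of all genes did. At that share a panel of this size may well hold none, so nothing about the panel follows from it. Of 14 tested from a panel of 20, 8 were positive and 6 negative, with a median of 0.01. An unadjusted p below 0.05 was found in 1, with FR3 lower (6.1% of all genes). The rest of the panel did not pass the filter on low counts and has no result. The range ran from LIF, a cytokine of implantation, at -1.41 ± 0.82 to PTGS2, the inducible prostaglandin synthase, at 2.18 ± 1.40. PTGS2 was at 0, 3.43, 13.5, 0 and 1.61 CPM in FR1 and at 35.9, 17.2, 5.56, 0.436 and 25.2 CPM in FR3, a wide spread in both groups. VEGFA, an angiogenic factor, had 1.01 ± 0.52. Of 5 sperm and testis genes tested 1 had an unadjusted p below 0.05 (6.1% of all genes with FR3 lower). It was AKAP4, a sperm tail protein, at -1.55 ± 0.65. Of 4 early embryo and trophoblast genes 2 were positive and 2 negative.

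**Figure D5:**
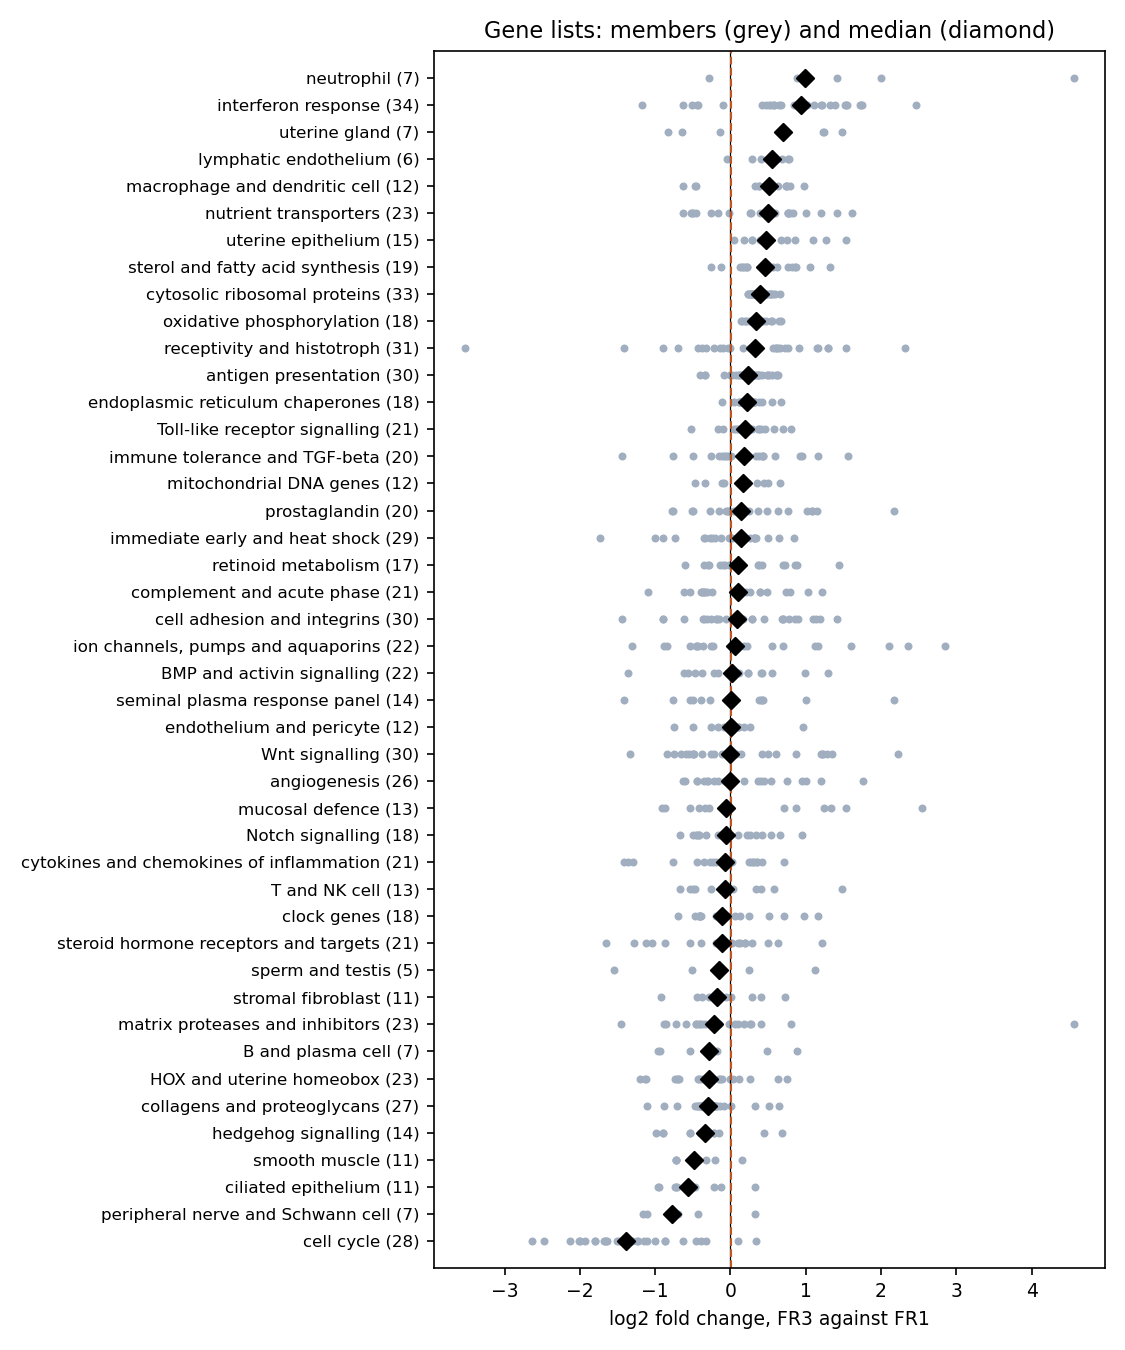
Log2 fold change of FR3 against FR1 for the members (grey points) and the median (diamond) of each gene list with at least 5 genes tested, the number tested in brackets. The dashed line marks the median of all genes, 0.01, and the cell cycle list, at -1.39, lies furthest from it.

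The FR2 libraries, which the 10-library fit did not use, had a mean nearer to FR1 than to FR3 in most genes. Among the 173 genes with FR3 wholly above FR1, the mean FR2 level was nearer to FR1 in 135 (78.0%), and among the 241 with FR3 wholly below, in 202 (83.8%), against 66.6% of all genes tested. All 5 FR2 libraries lay on the FR1 side in 52 and 92 of these genes, and all 5 on the FR3 side in 8 and 9. These genes were picked because FR1 and FR3 do not overlap in them. No such count was made over all genes, so these counts have no share to stand against. For the cell cycle list the FR2 means were 3.81, 3.02, 4.97, 3.90 and 4.26 in FR2_1 to FR2_5, against 3.28 to 4.79 in FR1 and 2.24 to 3.45 in FR3. For the oxidative phosphorylation list FR2 ranged from 6.11 to 6.31, FR1 from 6.10 to 6.52 and FR3 from 6.50 to 6.91. A test of FR2 against the midpoint of FR1 and FR3 called 0 of 17354 genes with edgeR (920 at an unadjusted p below 0.05, lowest adjusted p = 0.151), so no gene was shown to lie off the midpoint in that fit. FR2 against FR1 and FR3 against FR2 share their libraries with the comparison above, and for MKI67 their log2 fold changes were -0.14 and -2.35.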

How the data were processed

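Poly-A RNA of uterine tissue from 20 sows was sequenced as 150 bp read pairs, per the labels' protocols. The deposited table holds estimated counts per gene, and CASAVA, STAR 2.7.9a and Salmon 1.10.1 are named in the submitters' processing notes. The genome build, the annotation and the strand setting are not given in the sources used here, so reads of overlapping, antisense or near-identical genes cannot be told apart. The column names give the group but not the sow, so columns were assigned to groups only. P-values measure the spread between sows. Of 30369 entries, 24 without a gene name were left out. Whole numbers made up 87.2% of the values, and the rest were rounded. Gene names are those of the table, and 30328 had the same symbol in RefSeq's gene table.

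FR3 was compared with FR1 with edgeR 4.0.16 (R 4.3.3): filterByExpr, TMM factors, the quasi-likelihood test with 8 residual degrees of freedom, 2-sided, and Benjamini-Hochberg adjustment over the 16662 genes tested. Genes were called at an adjusted p below 0.05. Each SE was taken from the F statistic. Levels are CPM, counts scaled to library size with TMM factors over all 20 libraries, which do not correct for gene length, and list means are of log2(CPM + 0.5). Alternatives used DESeq2 1.42.0, limma 3.58.1 and sva 3.50.0, other filters and factors, covariates, and fits without libraries. Counts were also simulated independently for each gene, with 200 of 16246 genes changed. On these the test recovered 14.9% of changes of 2-fold, 64.2% of 4-fold and 87.9% of 8-fold, with 6 false calls.

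The comparison, the 49 gene lists and the alternatives were chosen with earlier results of these data known. Genes were named as the 8 with the smallest p in each direction and up to 4 per list with the smallest p, without symbols that start with LOC. Other named genes were chosen after their values were seen: the cell cycle genes AURKB, CCNB2, MCM5 and TPX2 and, among the DESeq2 calls, FOXM1, CHEK1, PLK4 and MCM4. No library was treated as a duplicate: the files of no pair of libraries agreed within counting error. A few genes that the naming rule selects are not reported here.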

Additional observations from a re-analysis of the deposited data

Results flagged for a closer look

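A library that lay far from the other 4 of its group, by Dixon's test for 5 values, was found in 26 of 372 sets of values, and chance flags about 1 in 20 groups. Most of the low values of epithelial and secretory genes were in FR3_4: ELF3, an epithelial transcription factor, at 5.85 CPM, PTGES at 25.3, FDFT1 at 97.5, FDPS, an enzyme of sterol synthesis, at 289, EHF at 13.2 and HDC, which makes histamine, at 34.4 CPM. FR3_4 also had low means of log2(CPM + 0.5) over the epithelial (5.74), gland (4.46) and retinoid (4.27) lists, and a high level of SAL1, a salivary lipocalin, at 72.6 CPM. In FR1_3 the contractile and stromal genes were low, with MYH11 at 483 CPM, FBLN1, a fibulin of the matrix, at 213 CPM, the oxytocin receptor OXTR at 1.43 CPM and the stromal fibroblast mean at 7.44, while RPL27 was high at 442 CPM.

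Single high or low libraries were found among immune and blood genes. FCGR3A, an Fc receptor, was high in FR3_3 at 67.0 CPM and MMP8 in FR3_5 at 14.6 CPM. HBB was low in FR1_5 at 20.4 CPM, as were ALAS2, of heme synthesis, at 0.355 CPM and the red blood cell mean at 1.15. CD79B, of the B cell receptor, was high in FR1_4 at 5.96 CPM, and the B and plasma cell mean was high in FR1_5 at 1.99. LRRC57 was low in FR1_4 at 13.4 CPM, OXTR low in FR3_3 at 0.372 CPM, the estrogen receptor ESR2 high in FR3_1 at 0.725 CPM, and the clock gene PER3 high in FR3_2 at 15.4 CPM. None of these libraries was left out of the comparison for it.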

How the results depend on the processing

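At an adjusted p below 0.05, DESeq2 alone among the fits called genes, and edgeR called none below 0.1 or 0.01 either. DESeq2 called 260 genes, 91 higher and 169 lower in FR3. Over all 25 alternatives the lowest adjusted p ran from 6.72e-06 to 1.00, and the count at an unadjusted p below 0.05 from 367 with the cell cycle mean as a covariate to 4767 with limma's sample quality weights. Leaving out libraries 2 or 3 at a time, DESeq2 with libraries left out, and the cell cycle covariate, which is made from the list it then adjusts, were added after seeing the data. Leaving out 1 library at a time gave 39 to 927 DESeq2 calls, 16 to 448 higher and 23 to 479 lower. Without FR1_1, FR1_4 and FR3_4 there were 113, 61 and 52, and without FR3_3 and FR3_5 there were 185, 37 and 148. Genes without overlap numbered 444 to 1114 when 1 library was left out (191 to 588 above, 253 to 534 below) and 1403 without the 3 (704 and 699). FR2 differed from the midpoint of FR1 and FR3 in 1 gene with all 20 libraries, GPCPD1 (edgeR, 1.14 ± 0.18, adjusted p = 0.0496). No paired analysis was possible because the labels number the sows 1 to 20, so that the groups share no number.

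The cell cycle median was -1.12 to -1.64 in all alternatives but that covariate, where it was 0.034, with interferon at 0.066, B and plasma cells 0.32, cytokines 0.30 and receptivity 0.10. With quality weights the medians were -1.11 for ciliated cells, -0.59 for endothelium, -0.81 for lymphatic endothelium, 1.36 for red blood cells, -0.34 for cytokines, 0.0011 for tolerance, -0.24 for complement, -0.20 for prostaglandin, -0.47 for Wnt, -0.32 for BMP and 0.091 for chaperones. The early embryo list had -0.43 with 1 surrogate variable and with the epithelial covariate, -0.49 with a minimum of 1 CPM, 0.53 with 20 libraries and 0.39 with no filter. Nerve had -0.24 with that minimum and -0.23 with the epithelial covariate. With 20 libraries tolerance had 0.37 and complement -0.20. With no filter mesothelium had 0.39, sperm -1.02 and tolerance 0.37. Without FR1_1, FR1_4 and FR3_4 tolerance had -0.17 and complement -0.15. Without FR3_3 and FR3_5 red blood cells had 1.62 and sperm -0.75. Leaving out 1 library gave -0.40 to 0.59 for T and NK cells, -0.75 to 0.29 for B and plasma cells, 1.75 to 3.40 for red blood cells, -0.71 to -0.11 for sperm, -0.14 to 0.19 for tolerance, -0.20 to 0.15 for complement, 0.11 to 0.43 for receptivity, -0.15 to 0.31 for prostaglandin, -0.20 to 0.076 for steroid receptors, -0.45 to 0.092 for Wnt and 0.16 to 0.28 for chaperones.

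Of 3416 log2 fold changes of 137 genes, 19 in 14 genes changed sign. With the cell cycle covariate these were TPX2 0.015, TOP2A 0.098, CCND1 0.017, HDC -0.014, MUC4 -0.039, PTGS2 -0.058, SLC7A1 0.13, MYC 0.077 and IHH 0.059. With the epithelial covariate they were TYMS -0.031, HDC -0.37, PIGR -0.14, EHF -0.11 and GATA2 -0.23, and with 1 surrogate variable GATA2 -0.16. CCNE1 had -0.19 with quality weights, -0.10 without FR3_3 and FR3_5, and -0.10 to 0.22 with 1 library left out, being negative without FR3_3 or without FR1_3. The cause was not tested. On simulated counts with 5 libraries a group, the test recovered 14.9% of 2-fold changes. The simulation drew each gene independently, whereas the real libraries varied together across genes. The recovery in these data was therefore not measured.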
